A study of Mus musculus with 4 samples.

Results

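The regions described here are the 3 kb stretches upstream of autosomal mouse genes that were almost unread in wild-type testis. They had no annotated neighbour close by on the upstream side, and genes on the side of the downstream gene were not considered. Of 30166 upstream regions counted on both strands, 9593 (31.8%) qualified: on chromosomes 1 to 19, with no gene of the gene table inside the region or within 10 kb beyond its outer edge, and with the downstream gene at a mean below 10 raw reads in the WT libraries. The gene's own WT reads chose the members, so its silence is not a result; the reads inside the region were not used. Testis RNA came from B6D2F1 mice at postnatal day 17, with 2 libraries labelled Dis3 WT and 2 labelled Dis3 KO. The series' text calls the mutants conditional knockouts and the other mice controls. Which Cre line was used, in which cells it acts and what alleles the controls carried are not stated in the labels. The labels also do not say whether the libraries of a genotype came from separate animals, so the p-values below cover library-to-library spread, which may be technical. "Sense" below means the strand of the downstream gene and "antisense" the other strand.

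The RNA exosome, a multisubunit machine, shortens and destroys RNA starting at the trailing end, and DIS3 is its processive ribonuclease subunit in the nucleus. Active promoters often fire in both directions, and the short upstream transcripts that result, known as PROMPTs, are normally removed by the exosome soon after they are made. Regions upstream of genes with few or no reads are described here for comparison. Few exonic reads do not show that a gene is untranscribed, least of all a short gene. Many of the silent genes belong to families read in other tissues, such as the olfactory and vomeronasal receptors, which detect odours and pheromones, and the defensins, which are antimicrobial peptides.

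Gene reads numbered 31031920 and 40329170 in the WT libraries and 17663416 and 19255782 in the KO libraries (replicate 1 first, here and below). Dis3 stood at 80.2 and 80.7 CPM (reads scaled to a common library size) in WT and at 39.6 and 42.9 in KO, a log2 fold change of -0.96 ± 0.0729 (SE). Of 4 germ cell markers (Ddx4, Dazl, Sycp3, Ldhc) all 4 fell in KO, and their summed level was 2083 in both WT libraries against 1473 and 1463 CPM in KO. Of 4 Sertoli cell markers, Sox9 and Wt1 rose, with sums of 3971 and 3902 CPM in WT against 4414 and 4290 in KO. Of 4 Leydig cell markers, Star and Hsd3b1 fell, with sums of 258 and 259 against 204 and 207 CPM. Liver markers (Alb, Apoa1) summed to 0.440 and 0.633 CPM in WT and 1.87 and 1.51 in KO, and Alb was called higher (log2 fold change 1.66, adjusted p = 0.0259, edgeR). Brain markers (Gfap, Neurod6) summed to 3.38 and 3.32 CPM in WT and 2.58 and 3.16 in KO, with none called, and no marker gene was at 0. Among all 25076 genes tested, 11.6% were called higher and 20.3% lower in KO (edgeR's quasi-likelihood test, Benjamini-Hochberg adjusted p under 0.05). The part of these shifts in the results below was not tested.

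The sequences that help place the results come from RefSeq (GRCm38.p6). Several of the most read regions end at a microRNA hairpin: of 324 members whose own gene is typed miRNA, 57 matched a RefSeq hairpin, and in all 57 the hairpin began 1 base after the region. The mature microRNAs downstream of the 5 such regions that are described below are printed with the seed, bases 2 to 8 from the leading end, in capitals. The 7 mature sequences had 7 different seeds.
mmu-miR-7221-5p: cGUCUCUUggucacagguggg
mmu-miR-7221-3p: uGACUGUGggcuggggacugg
mmu-miR-683: cCUGCUGUaagcuguguccuc
mmu-miR-30a-5p: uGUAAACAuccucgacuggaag
mmu-miR-30a-3p: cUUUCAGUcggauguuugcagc
mmu-miR-8092: gCCAUCUGggacucgcaggca
mmu-miR-1945: uCUUCGCGgguacugucgggac

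For 691 members (7.20%) RefSeq places a transcription start at the region's inner end, too few for a comparison of base composition over the members. The 250 bases before the start are shown for 4 of them, with CG dinucleotides in capitals. Esp38 (a peptide secreted by exocrine glands, a pheromone family) and Krtap3-1 (a keratin-associated protein of hair) were chosen for their high levels, with Esp38 at 3.28 times the level of the members in sense and Krtap3-1 at 2.64 times in antisense. Olfr1136 (an olfactory receptor) and Gm31026 (a lincRNA) lay nearest the members' median of 77 reads over both strands and 4 libraries.
Esp38 (chr17:39950270-39950519, plus strand): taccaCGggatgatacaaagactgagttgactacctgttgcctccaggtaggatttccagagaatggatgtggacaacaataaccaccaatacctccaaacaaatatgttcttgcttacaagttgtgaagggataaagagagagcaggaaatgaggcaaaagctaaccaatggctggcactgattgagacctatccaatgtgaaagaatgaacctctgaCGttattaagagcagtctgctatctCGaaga
Krtap3-1 (chr11:99566631-99566880, minus strand): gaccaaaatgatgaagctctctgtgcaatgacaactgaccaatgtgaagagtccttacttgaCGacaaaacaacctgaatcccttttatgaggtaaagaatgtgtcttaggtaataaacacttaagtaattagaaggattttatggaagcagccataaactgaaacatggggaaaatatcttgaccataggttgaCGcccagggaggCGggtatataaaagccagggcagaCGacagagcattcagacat
Olfr1136 (chr2:87693948-87694197, minus strand): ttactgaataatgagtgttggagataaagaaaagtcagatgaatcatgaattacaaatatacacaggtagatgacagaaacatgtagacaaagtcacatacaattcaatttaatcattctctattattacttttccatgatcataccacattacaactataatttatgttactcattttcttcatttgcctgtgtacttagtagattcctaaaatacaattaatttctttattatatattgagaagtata
Gm31026 (chr3:53924585-53924834, plus strand): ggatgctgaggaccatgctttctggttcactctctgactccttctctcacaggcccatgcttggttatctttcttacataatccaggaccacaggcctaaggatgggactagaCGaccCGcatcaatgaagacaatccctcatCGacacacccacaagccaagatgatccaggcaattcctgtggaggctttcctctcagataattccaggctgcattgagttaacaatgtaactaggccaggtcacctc

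These windows held 3 CG dinucleotides in Esp38, 4 in Krtap3-1, none in Olfr1136 and 3 in Gm31026, against a median of 6 over all 32851 promoters in the table. Their GC content was 42.8%, 41.2%, 26.4% and 49.6%, against a median of 52.4%. The window of Tac4 (a tachykinin gene), chosen by the same rule but not printed, had 1 CG dinucleotide and a GC content of 54.4%. The letters TATAAA were present on the gene's strand in the Krtap3-1 window and on either strand in none of the other windows; 12.4% of all promoter windows of this length held them on either strand. The Esp38 region (chr17:39947520-39950519) had 27 and 35 sense reads in WT and 23 and 26 in KO. The Krtap3-1 region (chr11:99566631-99569630) had 21 and 37 antisense reads in WT and 17 and 12 in KO. The Olfr1136 region (chr2:87693948-87696947) had 8 and 5 sense reads in WT and 8 and 12 in KO, close to the median member.

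The own genes of the members were mostly not protein coding. Processed pseudogenes, which are retrocopies of mRNAs, made up 3178 (33.1%), lincRNAs 1796 (18.7%), protein-coding genes 1556 (16.2%) and unprocessed pseudogenes 742 (7.73%). Small nuclear RNA genes numbered 464, small nucleolar RNA genes 402 and microRNA genes 324. Among other isolated autosomal regions 78.1% of own genes were protein coding. A cut in raw reads favours short genes: the median exonic length was 620 bases for members and 3877 for the others. In WT 2098 own genes had no read at all. In KO 593 own genes reached a mean of 10 reads or more.

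On 1 strand a typical member carried fewer than 10 reads in either WT library. The level, taken as the mean over members after dropping the lowest and highest 25% (interquartile mean), was 8.11 and 7.44 sense reads in WT and 9.07 and 10.1 in KO. Antisense levels were 8.02 and 7.57 in WT and 9.08 and 10.3 in KO. Both KO libraries were thus above both WT libraries on either strand, although they held fewer gene reads. Expressed as CPM with the TMM-scaled gene reads as the library size (gene-scaled CPM), the sense level was 0.274 and 0.196 in WT and 0.497 and 0.493 in KO. The gene-scaled antisense level was 0.271 and 0.200 in WT and 0.498 in each KO library. The means were 0.235 ± 0.0552 (WT) and 0.495 ± 0.00329 (KO) for sense (SD, n = 2), and the KO to WT ratio was 2.10 for sense and 2.12 for antisense. An exact permutation test over the 4 libraries (6 relabellings, two-sided) gave p = 0.333 for each strand with n = 2, the smallest value this design allows. Without any scaling the ratios were 1.24 on both strands. In bulk testis RNA fewer cells of a type and less RNA per cell cannot be told apart, and gene reads are the denominator here.

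The spread around this level was wider than counting error alone and much alike on both strands. In the middle 90% of members the variance of sense reads was 1.83 to 2.43 times their mean, where pure counting error gives about 1 or less. In WT replicate 1 the sense reads per member had a 5th percentile of 0, a median of 8 and a 95th percentile of 18, and in KO replicate 2 these were 0, 10 and 20. Sense and antisense reads of the same member correlated at Spearman's rho of 0.344 to 0.392 within a library, and the same strand between replicates at 0.353 to 0.409, across members and with depth and mappability shared. Among members below 2 times the level, replicate counts differed by a chi-square per degree of freedom of 2.23 and 2.18 in WT and 1.63 and 1.62 in KO (sense, antisense), where pure counting error gives 1. Over the 4 libraries 267 members had no read on either strand, and 8752 (sense) and 8749 (antisense) reached the 10 reads required for a test.

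Neither strand was favoured. The sense share of the level was 50.3% and 49.6% in WT and 49.96% and 49.7% in KO, so the genotypes overlapped (exact permutation test over libraries, two-sided, p = 1, n = 2). Own genes just inside the limit (9 to under 10 WT reads, 293 regions) had sense levels of 9.04 and 8.75 reads in WT and 9.91 and 11.5 in KO. Own genes just outside it (10 to under 11 reads, 249 regions) had 9.67 and 9.14 in WT and 10.1 and 11.8 in KO.

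**Figure D1:**
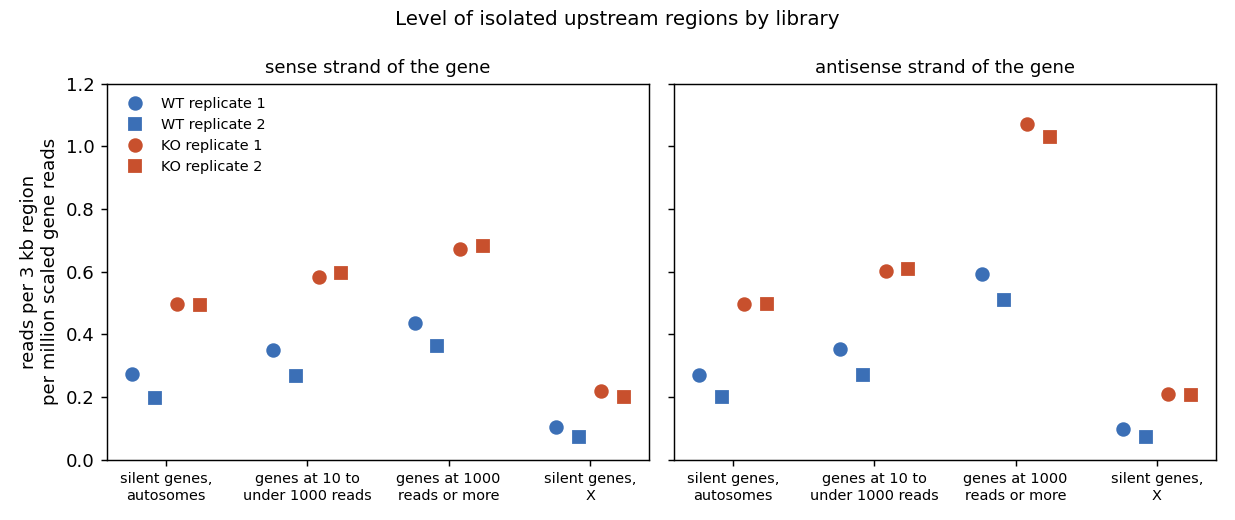
Interquartile mean of reads per 3 kb region in gene-scaled CPM (vertical axis) in each library, for isolated regions grouped by chromosome and by the WT reads of the own gene (horizontal axis), sense at left and antisense at right. In all 4 groups of regions both KO libraries lie above both WT libraries; for autosomal silent genes the sense values run from 0.196 to 0.497.

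Regions of read genes carried more reads than members, and the margin was smaller in KO on both strands. Isolated autosomal regions whose own gene had 1000 or more WT reads (2160 regions) stood at 1.59 and 1.84 times the members' sense level in WT and at 1.35 and 1.38 times in KO. On the antisense strand, where PROMPTs lie, the same regions stood at 2.18 and 2.55 times the members' level in WT and 2.15 and 2.07 times in KO. For own genes at 10 to under 1000 reads (4971 regions) the sense multiples were 1.28 and 1.35 in WT and 1.17 and 1.21 in KO. In each of these 3 comparisons the KO libraries lay below the WT libraries without overlap (exact permutation test over libraries, two-sided, p = 0.333, n = 2, the smallest possible). The KO to WT ratio of the level itself was 1.70 (sense) and 1.91 (antisense) for genes at 1000 or more reads, below the members' 2.10 and 2.12.

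The same difference between genotypes was seen on all 19 autosomes. On every autosome both KO libraries lay above both WT libraries, with KO to WT ratios from 1.92 on chromosome 19 (104 regions) to 2.19 on chromosome 14 (618 regions). Levels relative to all members were lowest on chromosome 7 (862 regions), at 0.735 and 0.730 in WT and 0.753 and 0.727 in KO. They were highest on chromosome 18 (134 regions), with a mean of 1.12, and chromosome 10 was next at 1.11. On chromosome 7, 18.9% of members had no read on either strand in WT replicate 1, against 0.746% on chromosome 18. Over all autosomes and libraries the sense share stayed between 47.5% and 52.0%.

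The X chromosome stood apart from the autosomes. Its 990 isolated regions of silent genes, chosen by the same limits, had 0.398 and 0.396 times the members' level in WT and 0.456 and 0.435 times in KO, summed over strands. The mean was 0.397 ± 0.00204 in WT and 0.446 ± 0.0148 in KO (SD, n = 2; exact permutation p = 0.333, two-sided, the smallest possible), without overlap. Male cells hold a single X and a pair of each autosome. The KO to WT ratio on X was 2.37 for sense and 2.44 for antisense. In WT replicate 1, 13.9% of the X regions had no read on either strand.

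**Figure D2:**
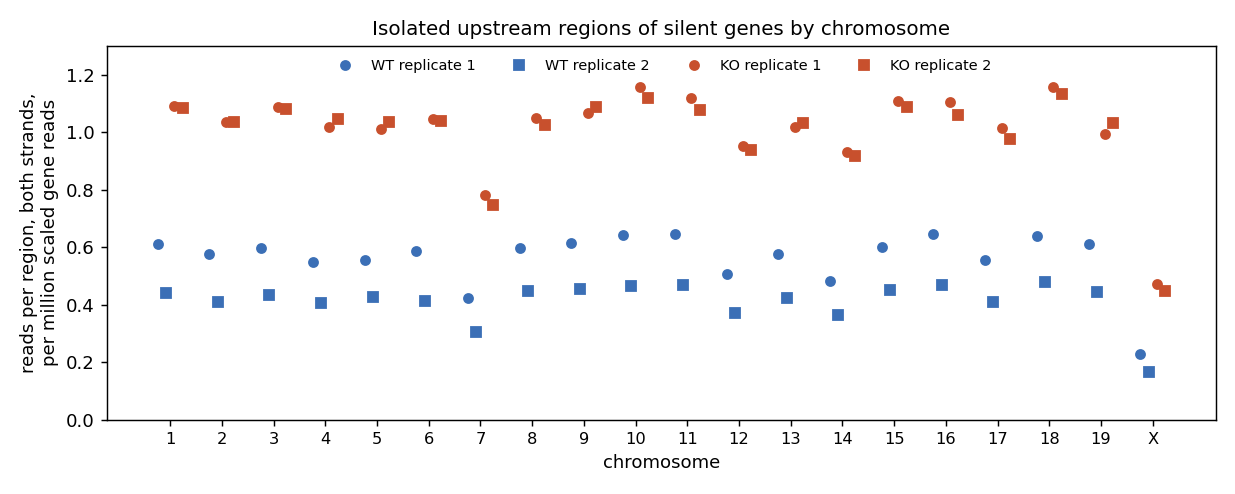
Interquartile mean of reads per region on both strands in gene-scaled CPM (vertical axis) on each chromosome (horizontal axis) in each library. Both KO libraries lie above both WT libraries on all 19 autosomes; chromosome 7 is the lowest autosome and X is lower still, at 0.397 of the autosomal level in WT on average.

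Levels varied with the family of the silent gene and little with the distance to the next gene beyond the region's outer edge. Relative to all members the mean level was 0.579 for 273 regions of vomeronasal receptor genes and 0.541 for 32 regions of defensin genes. Regions of 358 olfactory receptor genes stood at 0.920, and of 72 genes with microRNA symbols at 1.18. By gene type, unprocessed pseudogenes (copies made by gene duplication) stood at 0.647, protein-coding genes at 0.868, processed pseudogenes at 1.02 and lincRNAs at 1.11. Members without any read over the 4 libraries made up 12.8% of the vomeronasal and 9.16% of the unprocessed pseudogene regions, 0.279% of the olfactory and 0.780% of the lincRNA regions, and none of the defensin regions. Reads that align to several places are not counted, and the part of this in the low families was not tested. With the next gene beyond the outer edge at 10 to 20 kb, 20 to 50 kb, 50 to 200 kb and farther, the mean relative level was 0.956, 0.993, 1.04 and 1.01.

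The most read members did not show the genotype difference of the others. To keep the choice of members apart from the values compared, the level was taken from 1 replicate number and the KO to WT ratio from the other. In members at 0.25 to under 2 times the level, the sense ratio lay between 2.33 and 2.38 in replicate 2 and between 1.75 and 1.83 in replicate 1. At 3 to under 5 times the level the sense ratio was 1.43 (17 regions) in replicate 2 and 1.44 (29 regions) in replicate 1. At 5 times the level or more it was 1.06 (13 regions) and 1.12 (15 regions). The antisense strand did likewise: the ratio was 2.27 to 2.42 in replicate 2 and 1.72 to 1.89 in replicate 1 between 0.25 and 2 times the level. It was 0.847 (25 regions) and 0.933 (29 regions) at 5 times the level or more. Bins drawn from all 4 libraries, which reuse the values compared, gave a gradual fall instead, with sense ratios of 2.29, 2.02 and 1.76 at 0.5 to 1, 1 to 1.5 and 1.5 to 2 times the level.

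**Figure D3:**
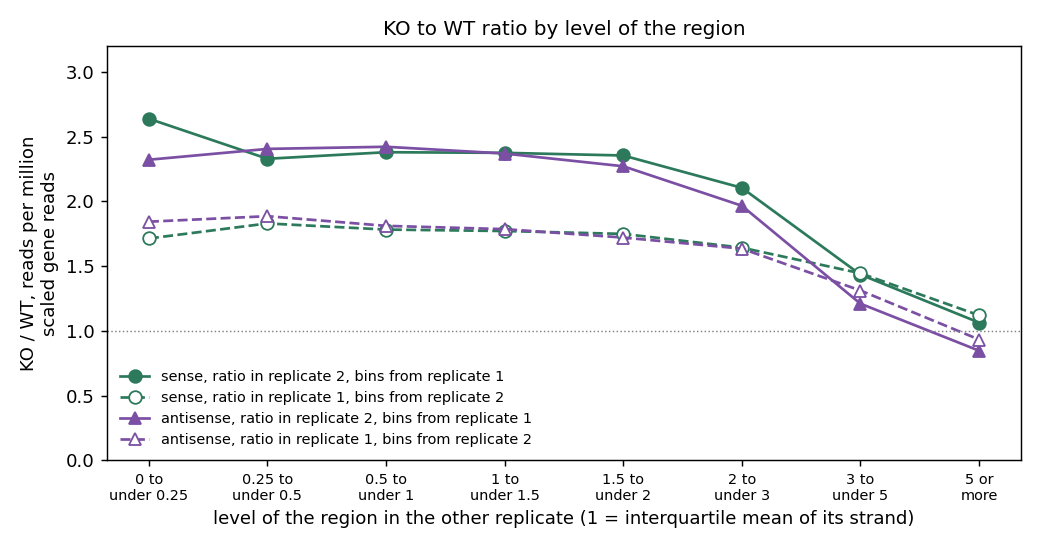
KO to WT ratio of reads in gene-scaled CPM (vertical axis) for members binned by their level in the libraries of the other replicate number (horizontal axis, in multiples of the strand's interquartile mean). Between 0.25 and 2 times the level the 4 lines lie between 1.72 and 2.42, and they come down to between 0.847 and 1.12 in members at 5 times the level or more.

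Tested 1 region at a time, few members passed. With the gene table's scaling, which keeps a general shift, 122 of 8752 sense members (1.39%) were called higher in KO and 0 lower, where 1.1% of all 26972 regions were called higher and 0.0704% lower. The members' median log2 fold change was 1.02, against 0.91 over all regions. On the antisense strand 437 of 8749 members (4.99%) were called higher and 2 lower, where 6.96% of all 26953 regions were called higher and 0.0779% lower, with medians of 1.05 and 0.98. Called higher on both strands were 10 members, and the like number over all regions was not counted. The sense members called higher had a median of 3.5 reads in WT and 16.5 in KO. The count of calls in either direction is unstable: with DESeq2 it was 2 in sense (18 of all 26972 regions) and 60 in antisense (779 of all 26953). It also moved when 1 library was left out, in members and over all regions. The members' median sense log2 fold change was 1.26 without WT replicate 1 and 0.83 without WT replicate 2 (all regions 1.10 and 0.74). It was 0.97 without KO replicate 1 and 0.94 without KO replicate 2 (all regions 0.86 and 0.82). In antisense these 4 omissions gave 1.26, 0.86, 0.98 and 0.95 (all regions 1.15, 0.82, 0.92 and 0.90). KO libraries lay above WT libraries without overlap in 5506 sense members (62.9%; all regions 58.5%) and 5629 antisense members (64.3%; all regions 63.3%). KO lay below WT without overlap in 85 sense members (0.971%; all regions 2.09%) and 118 antisense members (1.35%; all regions 1.79%).

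With the upstream tables' own scaling, which takes the general shift out, 8 sense members were called higher and 5 lower, where the shares over all regions were 0.0408% and 0.66%. On the antisense strand 0 were called higher and 17 lower, where the shares over all regions were 0.178% and 0.698%. DESeq2 called 1 higher and 8 lower in sense and 0 higher and 23 lower in antisense. Over all regions DESeq2 called 4 higher and 323 lower of 26972 in sense, and 48 and 299 of 26953 in antisense. An unadjusted p under 0.05 in edgeR was found for 484 of 8752 sense and 501 of 8749 antisense members. A share of 0.05 is expected with no difference, and the share over all regions was not counted. Leaving out either KO library ended all adjusted edgeR calls on this scale, in members and over all regions. Leaving out WT replicate 1 raised their number on both strands, in members and over all regions. KO lay above WT without overlap on this scale in 1827 sense members (20.9%; all regions 17.9%) and below it in 1206 (13.8%; all regions 19.1%). In antisense these were 1780 (20.3%; all regions 19.3%) and 1316 (15.0%; all regions 18.3%). Medians of the log2 fold change were 0.12 (sense) and 0.08 (antisense) for members.

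A small group of members was read far above the rest in every library. At 5 times the level or more in all 4 libraries, 8 regions stood out in sense and 14 in antisense, and none did on both strands. The 14 antisense regions held 4.69% and 6.10% of all antisense member reads in WT and 2.54% and 2.42% in KO. Summed, they reached 136 gene-scaled CPM in both WT libraries and 127 and 120 in KO, a KO to WT ratio of 0.908, against 2.12 for the level of all members. The 8 sense regions summed to 29.0 and 25.9 in WT and 35.3 and 31.5 in KO, a ratio of 1.22. Of the 22 regions, 8 had both KO libraries above both WT libraries, 5 had both below and 9 overlapped. The 5 below were all antisense regions. The 22 regions were chosen by the values compared here, KO included, so a region that falls far in KO can be missing. The Mir683-1 sense region, described below, lay lower in KO and is not among them. The ratios and directions of these regions therefore depend in part on the limit. Over all regions with at least 10 reads, KO lay above WT in 58.5% (sense) and 63.3% (antisense). It lay below WT in 2.09% and 1.79%. The other strand of these regions was ordinary: it stayed below 2 times its level in 7 of the 8 and 13 of the 14. RefSeq, which annotates more transcripts than the deposited gene table, had a gene model over 3 of the 8 and 3 of the 14, and over 35.5% of all members.

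On the sense strand the highest member was the region before Mir7221 (chr2:92589206-92592205, plus strand), a microRNA gene whose mature sequences are printed above. It had 242 and 266 sense reads in WT and 142 and 133 in KO, and 7 and 9 reads of its own gene in WT against 0 and 4 in KO. In gene-scaled CPM that was 8.19 and 7.01 in WT and 7.79 and 6.46 in KO, so the genotypes overlapped (log2 fold change -0.09 ± 0.203, SE, adjusted p = 0.76, edgeR). The region before Mir30a (chr1:23269269-23272268, plus strand), a member of the widely expressed miR-30 family, had 109 and 110 reads in WT and 64 and 72 in KO. The Gm27028 region (chr1:23288537-23291536, plus strand), before a lincRNA, had 116 and 116 in WT and 71 and 72 in KO. Next to them, before the Mir30a region on the chromosome, lies the region of the minus-strand gene Gm6420 (chr1:23256408-23259407), which had 111 and 104 antisense reads in WT and 75 and 79 in KO. All 3 were thus read on the plus strand of chromosome 1, within 35.1 kb, and in none was KO below or above WT by the test (log2 fold changes of 0.09, 0.09 and 0.30, adjusted p = 0.809, 0.824 and 0.371, edgeR).

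Mos encodes a kinase known for arresting oocytes in meiosis. Its region (chr4:3872106-3875105, minus strand) had 119 and 128 sense reads in WT and 67 and 55 in KO, while the gene itself had 1 and 3 in WT and 3 and 5 in KO. On the gene-table scale its log2 fold change was -0.22 ± 0.259 (SE, adjusted p = 0.556, edgeR). The Mir683-1 region (chr13:50544735-50547734, minus strand) had 122 and 163 sense reads in WT and 35 and 55 in KO, so KO lay below WT also in gene-scaled CPM (4.13 and 4.30 against 1.92 and 2.67). Its log2 fold change was -0.87 ± 0.266 (SE) on the gene-table scale, adjusted p = 0.0712, and -1.81 ± 0.335 on the own scale, adjusted p = 0.000718 (edgeR). The own-scale call was lost without KO replicate 1 or KO replicate 2, as was every other call on that scale. Its own-scale log2 fold changes were then -1.59 and -2.06. Gm12974 (a lincRNA) and Gm15770 (a processed pseudogene next to Fbxl18) had 69 and 102 and 57 and 99 sense reads in WT and 85 and 99 and 75 and 90 in KO. In gene-scaled CPM both KO libraries lay above both WT libraries, at 2.33 and 2.69 against 4.66 and 4.81 for Gm12974 and 1.93 and 2.61 against 4.12 and 4.37 for Gm15770. Their gene-table log2 fold changes were 0.91 and 0.89, adjusted p = 0.0533 and 0.0653 (edgeR).

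Mir8092 was the only one of the most read sense members with a like level on the other strand. Its region (chr19:40891703-40894702, plus strand) had 72 and 136 sense reads in WT and 52 and 40 in KO, and 82 and 115 antisense reads in WT and 70 and 79 in KO. RefSeq's model of Zfp518a, a zinc finger gene, covers it, and the own gene had 0 reads in all 4 libraries. In sense it was called lower on the own scale (log2 fold change -1.30, adjusted p = 0.0487, edgeR). On the gene-table scale the sense log2 fold change was -0.34 (adjusted p = 0.421, edgeR). Sense gene-scaled CPM overlapped, at 2.44 and 3.59 in WT and 2.85 and 1.94 in KO. In antisense both KO libraries lay above both WT libraries, at 2.77 and 3.03 in WT against 3.84 in each KO library, without a call on either scale.

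**Figure D4:**
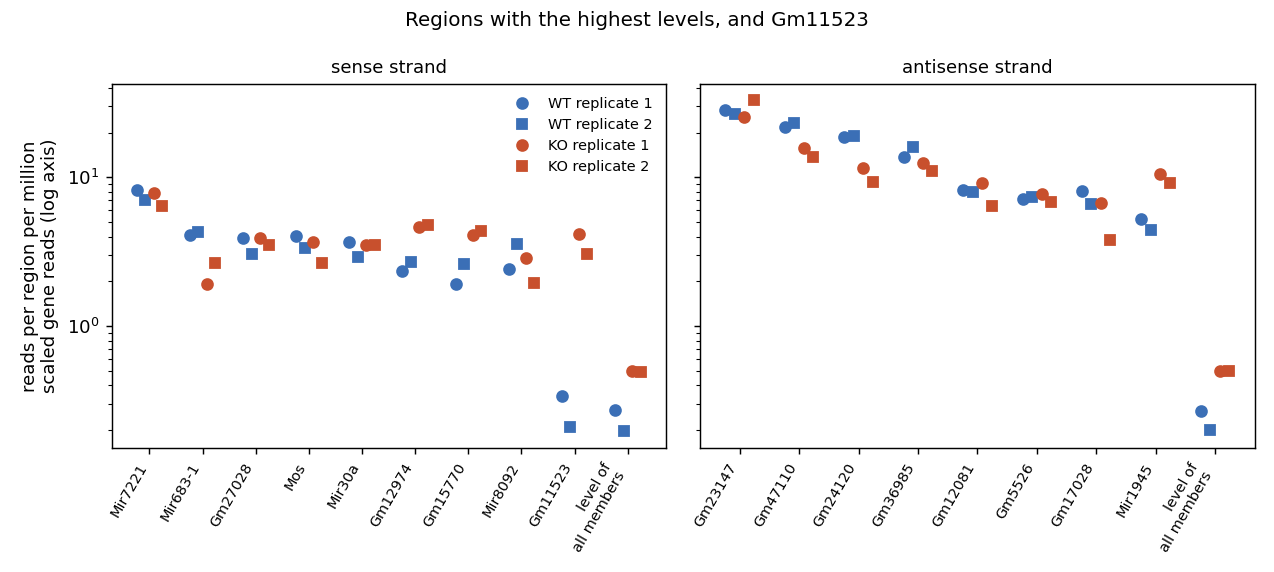
Reads per region in gene-scaled CPM (vertical log axis) in each library for the 8 members with the highest mean level on each strand, for Gm11523 at left, and for the level of all members. The level of all members is higher in both KO libraries; in the plotted regions both KO libraries are higher for Gm12974, Gm15770, Mir1945 and Gm11523, and the others overlap or are lower in KO.

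The antisense strand held the highest counts. The region before Gm23147 (chr3:6338992-6341991, minus strand), typed as a microRNA gene, had 844 and 1005 antisense reads in WT and 465 and 679 in KO, with 1 to 10 sense reads and none in the gene itself. In gene-scaled CPM it stood at 28.6 and 26.5 in WT and 25.5 and 33.0 in KO, so the genotypes overlapped (log2 fold change 0.09 ± 0.161, SE, adjusted p = 0.692, edgeR). Gm24120, a small nucleolar RNA gene, has its region at chr7:69957905-69960904 (minus strand), with no other gene within 200 kb beyond its outer edge. It had 554 and 724 antisense reads in WT and 210 and 193 in KO, which is 18.7 and 19.1 against 11.5 and 9.37 gene-scaled CPM. The region fell in KO on both scales: the log2 fold change was -0.86 ± 0.175 (SE, adjusted p = 0.00216) with the gene table's scaling and -1.85 ± 0.282 (adjusted p = 0.00027) with the own scaling (edgeR).

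Gm47110, a processed pseudogene, was the other antisense member called lower with the gene table's scaling. Its region (chr9:67697181-67700180, plus strand) had 642 and 875 antisense reads in WT and 288 and 282 in KO, a log2 fold change of -0.60 ± 0.167 (SE, adjusted p = 0.0254, edgeR). That call was lost without KO replicate 2 (adjusted p = 0.078), WT replicate 1 (0.061) or WT replicate 2 (0.16), whereas Gm24120 stayed called on that scale without any 1 library. Mir1945 differed in direction. Its region (chr16:11254446-11257445, minus strand) had 156 and 168 antisense reads in WT and 191 and 190 in KO, or 5.28 and 4.43 against 10.5 and 9.23 gene-scaled CPM. It rose with the gene table's scaling (log2 fold change 1.02 ± 0.194, SE, adjusted p = 0.000863) but not relative to other regions (0.04 ± 0.272, adjusted p = 0.988, edgeR).

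Other antisense members of this kind differed in direction between regions, and the raw reads below come from smaller KO libraries. Gm36985 (a processed pseudogene) had 406 and 602 reads in WT and 226 in each KO library, Gm12081 had 242 and 301 against 168 and 132, and Gm5526 had 213 and 281 against 140 and 141. Gm17028, a lincRNA region 12.7 kb from Lrriq1 (a gene with a mean of 1752 WT reads), had 239 and 252 against 122 and 78. Lrriq1 lies on the strand of Gm17028, opposite to these antisense reads. Fbxl18 (a mean of 2071.5 WT reads) lies 10746 bases beyond the Gm15770 region, on the strand of that region's sense reads. Mettl6 (2042.5) lies 11352 bases beyond the Gm49252 region, named below, also on the strand of its sense reads. The part of neighbouring genes in the reads of any region was not tested. The gene-scaled KO to WT ratio was 0.789 (Gm36985), 0.969 (Gm12081), 0.994 (Gm5526) and 0.712 (Gm17028). Gm36985 and Gm17028 were called lower on the own scale only (log2 fold changes -1.35 and -1.47, adjusted p = 0.00653 and 0.00416, edgeR). The Rny3 region, before a Y RNA gene, had 157 and 185 antisense reads in WT and 145 and 128 in KO, and the Vmn2r12 region, before a vomeronasal receptor gene, 71 and 140 against 76 and 109. In gene-scaled CPM both KO libraries lay above both WT libraries in these 2 regions, with KO to WT ratios of 1.39 (Rny3) and 1.55 (Vmn2r12). Neither was called on either scale (gene-table adjusted p = 0.114 and 0.089, edgeR).

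Gm11523 gave the clearest rise among the members. Its region (chr11:96873955-96876954, minus strand) had 10 and 8 sense reads in WT and 76 and 63 in KO, which is 0.338 and 0.211 against 4.17 and 3.06 gene-scaled CPM. The log2 fold change was 3.72 ± 0.381 (SE, adjusted p = 4.96e-08) with the gene table's scaling and 2.81 ± 0.441 (adjusted p = 5.66e-05) with the own scaling (edgeR). Antisense reads were 14 and 5 in WT and 22 and 20 in KO. The gene itself, a processed transcript of 1095 exonic bases, had 7 and 2 reads in WT and 2 and 6 in KO. RefSeq's model of Gm11523 reaches into the region. With the gene table's scaling it stayed called without any 1 library, with log2 fold changes from 3.38 to 4.02. The own-scale call was lost without KO replicate 1 or KO replicate 2, as was every other call on that scale. The own-scale log2 fold changes of Gm11523 were then 2.57 and 3.02.

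The other 7 sense members called higher on the own scale had a mean below 10 reads over the libraries. Among them were Gm43042 (0 and 0 in WT, 10 and 11 in KO) and Gm15925 (0 and 0 in WT, 12 and 9 in KO), chosen here after their values were seen. The sense calls lower than other regions were Mir683-1, Mir8092, A430060F13Rik (24 and 16 against 3 and 3 reads), Gm10601 (21 and 33 against 5 and 9) and Gm49252 (54 and 109 against 26 and 41). The largest antisense falls on that scale, after Gm24120, were those of Gm18276 (123 and 215 against 70 and 43 reads), Gm48475 (114 and 204 against 57 and 51), Gm47367 (88 and 158 against 40 and 47) and Gm25703 (56 and 45 against 15 and 21). Their own-scale log2 fold changes lay between -1.76 and -1.68.

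A typical member looked different from all of these. Gm24674, a small nuclear RNA gene whose region (chr1:10009918-10012917) lies at the median of reads, had 6 and 3 sense reads in WT and 9 and 13 in KO, and 7 and 11 antisense reads in WT and 11 and 17 in KO. Gm24901 had 8 and 2 sense reads in WT and 7 and 12 in KO. Gm38090 had 7 and 10 in WT and 16 and 12 in KO. None of the 3 was called on either strand.

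Among the genes of the pathway, none of the exosome's subunits and partners was called higher. Of 22 listed genes 21 could be tested; 11 were called lower in KO, 0 higher and 10 were not called, with a median log2 fold change of -0.25 (shares over all genes are given above). Exosc10, the second nuclear ribonuclease of the complex, was at 165 and 162 CPM in WT and at 129 and 119 in KO. Dis3l, the cytoplasmic counterpart of DIS3, was at 228 and 254 CPM in WT and at 133 and 136 in KO. Mtrex, the helicase that feeds RNA into the nuclear exosome, was at 257 and 265 CPM in WT and at 209 and 204 in KO. Zfc3h1, a scaffold that links polyadenylated RNA to the exosome, was at 79.6 and 81.5 in WT and at 87.6 and 88.9 in KO and was not called (adjusted p = 0.119, edgeR).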

How the data were processed

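Testis RNA libraries of Dis3 WT and Dis3 KO mice (2 each) were analysed from raw read counts that the authors made with featureCounts 1.6.4 and GENCODE M18, per the file headers. The authors counted genes over exons, and stretches of 3000 bases before each gene once per strand. The recorded commands do not keep reads that map to several places. The tools cutadapt and HISAT2 and the build GRCm38.p5 appear in the submitters' processing notes, without roles. The labels' protocols describe strand selection, random and poly(T) priming and depletion of targeted transcripts. Columns were matched to samples by title.

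Members were found by the stated rule; 811 regions without a row in the gene table were not analysed, and 18 members share an identical region with another (9 pairs). The members, lists and named regions were chosen with earlier results of these data known. Named regions are 3 typical members, the 8 with the highest mean level per strand, and up to 5 rises and 5 falls per strand among own-scale calls with a mean of at least 10 reads. Level bins from the other replicate number were added after the data were seen.

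All regions with at least 10 reads over the 4 libraries were fitted together with edgeR 4.0.16 in R 4.3.3 (robust quasi-likelihood test, genotype as the single term), with effective library sizes from the gene table (TMM factors 0.955 and 0.942 in WT, 1.04 and 1.07 in KO) or from the region table itself. DESeq2 1.42.0 was an alternative with the same sizes. Adjusted p-values are Benjamini-Hochberg over all regions, with a threshold of 0.05; an SE is the log2 fold change divided by the square root of F. Levels were compared by exact permutation of libraries (scipy 1.17.1). On simulated counts, 37% (sense, 26972 regions) and 36% (antisense, 26953 regions) of 4-fold changes and 100% of 16-fold changes were recovered. The changed regions were drawn from all upstream regions with a mean of at least 10 reads, and all were raised in KO. Replicate numbers did not pair the samples.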

Additional observations from a re-analysis of the deposited data

How the results depend on the processing

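The levels and the X ratio kept their direction under every choice tried. The log2 KO to WT ratio of the level was 1.07 (sense) and 1.08 (antisense), and from 0.85 to 1.33 and 0.88 to 1.32 when 1 library was left out. The KO minus WT difference of the X ratio was 0.0383 to 0.0593 in those omissions, against 0.0488. The sense share differed by -0.08 percentage points between KO and WT and its sign turned with a 50 kb isolation limit (0.126), the plain mean (0.816), the median (1.67), and without WT replicate 1 (0.268) or KO replicate 2 (0.0308). Omissions moved it from -0.428 to 0.268. Counts of calls were not stable, in members or over all regions, and the cause was not tested. Stricter lists hold fewer regions and omissions leave fewer libraries, but counts rose in some omissions. For sense members with the gene table's scaling (122) the count was 50 with a 50 kb limit, 20 with own genes at 0 WT reads, 1 with filterByExpr, 424 with no filter, 2 with DESeq2, and 3 to 1691 when 1 library was left out. For antisense (439) it was 186, 81, 350, 770, 60, and 25 to 991 in that order. With the own scaling, sense calls (13) became 4 with the 50 kb limit, 3 with own genes at 0 reads, 2 with filterByExpr and 0 to 53 in omissions. Antisense calls (17) became 4, 2, 13 and 0 to 27. A replicate block gave 234 and 541 calls on the gene-table scale for sense and antisense (all regions 601 and 2289). On the own scale it gave 6 and 9 (all regions 151 and 123). Same-numbered libraries did not deviate together (correlations of -0.00696, 0.00973 and -0.0101 in the gene, sense and antisense tables). Gene calls (7998) were 5321 with DESeq2, 8831 with the replicate block and 5597 to 7573 in omissions. Regions at 5 times the level or more numbered 8 (sense) and 14 (antisense). They numbered 14 and 25 at 3 times, 1 and 8 at 10 times, 0 and 6 with the 50 kb limit, 2 and 3 with own genes at 0 reads, and 8 to 10 and 14 to 18 in omissions.

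At about 8 reads per region and library, counting error is a large part of a single member's value. In simulated counts 37% (sense) and 36% (antisense) of 4-fold changes were recovered, among regions with a mean of at least 10 reads. Recovery at the reads of a typical member was not simulated separately. With 2 libraries per genotype no permutation test could pass the threshold. The regions are isolated by the deposited gene table only, and only beyond their outer edge. With 1 alternative list of genes added after the data were seen (9556 of the 9593 members remain) the sense count stayed at 122. That list joined GENCODE M18, used for the deposited counts, with the later release M21 of the same annotation. RefSeq models, those of own genes included, lay over 35.5% of members, and isolation by RefSeq was not tried.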
